A study of Caenorhabditis elegans with 6 samples.

Results

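Two-colour Agilent arrays of the nematode Caenorhabditis elegans were used to compare worms carrying either of 2 deletion alleles of ets-4, ok165 and uz1, and the values given here are the differences between those alleles. Each array held cDNA of a mutant strain, labelled with Cy5, against cDNA of the wild-type strain N2, labelled with Cy3. The series held 6 arrays, 3 of ets-4(ok165) and 3 of ets-4(uz1), and all 6 were used. All worms were late-stage L4 larvae, the last larval stage, raised on OP50 bacteria. No allele, transgene or treatment other than the ets-4 deletion was listed for either strain. For every gene, the log2 ratio of mutant to wild type on an ok165 array was subtracted from that on the uz1 array of the same replicate number, which gave 3 paired differences. Dyes were never exchanged, so a gene's dye bias enters both ratios and drops out of their difference. A positive difference means a higher level in ets-4(uz1) than in ets-4(ok165). The comparison asks where strains that both carry a deletion in ets-4 differed from each other, across 14585 genes.

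ETS-4 belongs to the ETS family of transcription factors, which bind DNA through a winged helix-turn-helix domain named after the founding member. Some members, ETS-4 among them, also carry a Pointed domain, through which proteins bind one another. The ok165 deletion takes out the coding sequence of both domains. The uz1 deletion takes out most of the DNA-binding domain and the 3′ untranslated region but leaves the Pointed domain, and a shortened mRNA is still made. The strains came from separate mutagenesis collections, so besides the ets-4 deletion they may carry different further changes. Both were crossed back to N2 6 times before their phenotypes were studied. Each allele is represented by a single strain, and allele and strain cannot be told apart.

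Between 68.5% and 72.9% of spots were well above background in the wild-type channel and between 72.8% and 85.4% in the mutant channel. Ratios of exactly 0 made up 9.67% to 20.9% of spots per array, and the scanner software marked 3 to 151 outlier spots on an array. Saturated spots numbered 128 and 89 on the arrays of pair 1 and 0 on the others. The spread of the ratios over spots ran from 0.30 to 0.71 log2 units (SD). Same-numbered arrays behaved as pairs: their deviations from the strain means correlated at 0.51, 0.69 and 0.29 across genes in pairs 1, 2 and 3, and the N2 channel of all 6 arrays correlated best with that of its own partner (0.991 to 0.994, against 0.938 to 0.979 for arrays of different number). The spread of the differences over genes was 0.72, 0.61 and 0.62 log2 units (SD) in pairs 1, 2 and 3. Across genes, the differences of pair 1 correlated at 0.57 with those of pair 2 and at 0.32 with those of pair 3, and those of pairs 2 and 3 at 0.35. Genes are not independent replicates, so these are descriptions. Both arrays of pair 1 lay on a single slide, whereas in pairs 2 and 3 the strains lay on different slides. The ok165 arrays of pairs 2 and 3 shared a slide, as did the uz1 arrays, so slide and allele cannot be told apart there.

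The deleted gene gave the same reading in both strains. The log2 ratio of ets-4 (F22A3.1, chromosome X) to wild type was -3.59, -2.80 and -2.72 on the ok165 arrays and -3.18, -3.08 and -2.84 on the uz1 arrays. The groups overlapped, and the mean difference was 0.01 with a 95% interval from -0.50 to 0.51 (adjusted p = 0.991, limma). The mutant channel was well above background on 2 of 3 ok165 arrays and on 3 of 3 uz1 arrays. Where the probe lies relative to each deletion was not determined, so the reading does not separate a missing from a shortened mRNA. The named neighbours of ets-4 on the chromosome, ttr-35 and ilys-5, did not pass the test. The difference was -0.34 (95% interval -0.83 to 0.15) for ttr-35, which encodes a transthyretin-like protein, and 0.72 (0.18 to 1.26) for ilys-5, which encodes an invertebrate-type lysozyme. The next gene beyond ilys-5, T14E8.2, was called lower in uz1 and is described further on (difference -2.21, adjusted p = 0.0379, limma). It is named here for its position, after its values were seen.

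The alleles differed at 94 genes (adjusted p under 0.05, limma on the paired differences, Benjamini-Hochberg over all 14585 genes), which is 0.644% of those tested. Of these, 63 were higher in ets-4(uz1), or 0.432% of genes tested, and 31 were lower, or 0.213%. The size of the called differences ran from 1.34 to 5.45 log2 units with a median of 2.08. The median difference over all genes was 0.04. Before adjustment, 2583 genes had a p under 0.05, 1240 of them higher and 1343 lower. Among the 94 genes, all 3 arrays of one strain lay outside the range of the other for 84, against 10.7% of all genes tested. The 94 were called from these same arrays for large differences, so this contrast is no separate support.

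In 61 of the 94 called genes the mean ratios to wild type had opposite signs in the strains. In 28, all 3 arrays of one strain were above wild type and all 3 of the other below. In 13 of the 94 both strains were at least 2-fold from wild type, in opposite directions. Calling picks large differences, which by itself favours opposite signs, so these counts are descriptions only. Of the 63 genes higher in ets-4(uz1), 41 were raised at least 2-fold over wild type in that strain and within 2-fold of wild type in ok165, 11 were at least 2-fold below wild type in ok165 and within 2-fold in uz1, and 8 were past 2-fold in opposite directions. Of the 31 lower genes, the corresponding counts were 12 reduced in uz1, 7 raised in ok165 and 5 opposite. The plot of both alleles against wild type shows these groups.

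**Figure D1:**
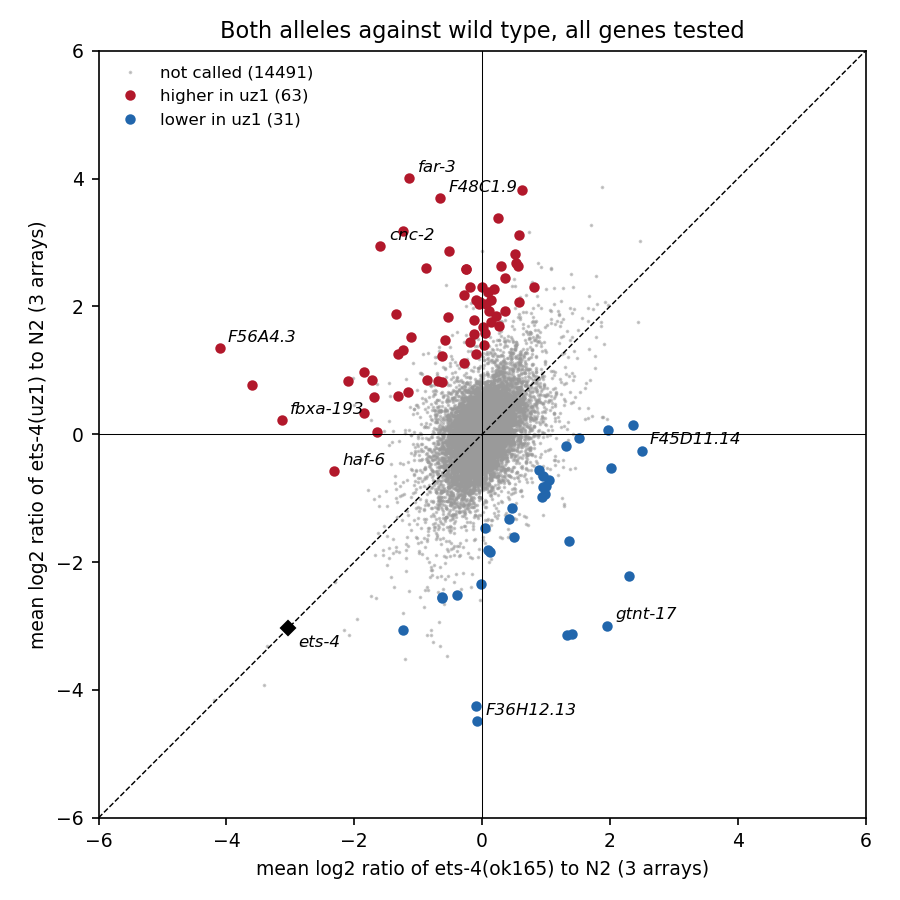
Mean log2 ratio of mutant to N2 over 3 arrays in ets-4(ok165) (horizontal) and ets-4(uz1) (vertical) for the 14585 genes tested. Red points mark the 63 genes higher in uz1, blue points the 31 lower genes, and the dashed line equality. ets-4 itself lies on the line, whereas F56A4.3, far-3 and cnc-2 lie far above it and gtnt-17 far below.

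The largest difference measured was at F56A4.3, a gene of chromosome V without a description in the array design. Its log2 ratio was -4.60, -3.63 and -4.08 in ets-4(ok165) and 1.65, 0.50 and 1.88 in ets-4(uz1). It was far below wild type on every ok165 array and above it on every uz1 array, and the paired difference was 5.45 ± 1.15 (SD, n = 3 pairs), or 43.7-fold (adjusted p = 0.0281, limma). In the same stretch of the annotation, irld-35, which encodes a protein of the insulin and EGF receptor-like family, read -1.67, -4.62 and -4.48 in ok165 and 2.15, 0.00 and 0.17 in uz1. The groups did not overlap, and the difference was 4.37 ± 0.47 (adjusted p = 0.017, limma).

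The fatty acid and retinol binding proteins, small secreted carriers of lipids that are peculiar to nematodes, contained the second largest difference. far-3 read -0.49, -1.75 and -1.17 in ok165 and 3.96, 3.80 and 4.27 in uz1. It was thus below wild type in one strain and well above it in the other, with a difference of 5.15 ± 0.61, or 35.4-fold (adjusted p = 0.017, limma). Its neighbour far-4 had no ok165 array with a mutant channel well above background, and its ratio was listed at 0 on all 3. It read 1.79, 2.69 and 2.41 in uz1. The difference of ratios was 2.30 (adjusted p = 0.0379, limma), or 4.92-fold, and the mutant channel alone put far-4 at least 6.24-fold higher in uz1. Here and elsewhere, "at least" sets the mean normalized mutant signal of the brighter strain against the background limit of the dimmer strain's arrays, without the N2 channel, whereas the adjusted p belongs to the difference of ratios. The N2 channel moved the same way as these genes, by 0.54 for far-3 and 0.70 for far-4. For far-4 that channel was well above background on no array, so its N2 shift and its ratios to wild type are imprecise. Of 8 members of this family tested, these 2 were called (25%, against 0.644% of all genes), and the others lay between -0.25 and 0.54. The family's median was 0.49. F15B9.6, which the array design describes as a phospholipase A2, lies close to far-3 and far-4 and differed by 1.44 ± 0.20 (adjusted p = 0.0485, limma).

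Peptide genes of the epidermal response to infection and wounding were among the genes called higher in ets-4(uz1). Caenacins are short glycine-rich secreted peptides, and the genes of the nlp-29 cluster encode related peptides made in the same tissue. Both groups are best known for their induction by fungal infection of the epidermis. cnc-2 read -1.90, -2.35 and -0.52 in ok165 and 1.89, 2.62 and 4.3 in uz1, with a difference of 4.53 ± 0.64, or 23.1-fold (adjusted p = 0.0195, limma). cnc-7 read -1.70, -1.87 and -0.15 against 2.42, 2.75 and 4.39, with a difference of 4.43 ± 0.27 (adjusted p = 0.013, limma). For both genes the pair 3 arrays were the highest of their own strain, yet no ok165 array reached any uz1 array. cnc-4, which lies beside cnc-2, read -2.31, -2.47 and -0.40 against 0.62, -0.01 and 1.96, and here the groups also stayed apart (difference 2.58 ± 0.30, adjusted p = 0.0252, limma). Of 8 caenacins tested, these 3 were called higher and none lower (37.5%, against 0.644% of all genes). The median over the 8 was 1.38, against 0.04 over all genes, and the lowest was cnc-5 at -0.51 (adjusted p = 0.211, limma). Without the pairing none of the 3 called caenacins passed (adjusted p 0.0957 for cnc-2, 0.0841 for cnc-7 and 0.398 for cnc-4, limma).

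In the nlp-29 cluster, 3 of the 4 genes tested were called (75%, against 0.644% of all genes), and all 3 were higher in uz1. nlp-31 read -0.58, -0.15 and -0.04 in ok165 and 2.01, 2.66 and 3.09 in uz1 (difference 2.84 ± 0.27, adjusted p = 0.0195, limma). nlp-28 read -0.06, 0.17 and 0.45 against 2.22, 2.37 and 2.22 (2.08 ± 0.28, adjusted p = 0.0289). Both stood near wild type in ok165 and well above it in uz1. nlp-27 read 0.62, 1.08 and -0.03 against 2.76, 3.40 and 1.73 (2.07 ± 0.28, adjusted p = 0.0294). nlp-30 differed by 1.58 and did not pass (adjusted p = 0.103). Without the pairing, nlp-31 and nlp-28 passed (adjusted p 0.0338 and 0.0273, limma) and nlp-27 did not (0.280). The N2 channel differed by 0.53 for nlp-31, 0.11 for nlp-28 and 0.48 for nlp-27. The median of the 4 genes was 2.21, 2.26 and 1.94 in pairs 1, 2 and 3.

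The fungus-induced peptides and their relatives, fip and fipr, moved in both directions. fip-1 read 0.36, 0.85 and 0.32 in ok165 and 2.67, 3.07 and 2.74 in uz1, and the 3 paired differences of 2.31, 2.21 and 2.42 were close to each other (adjusted p = 0.0213, limma). Its N2 channel differed by 0.49. fipr-24 was higher by 2.34 ± 0.44 (adjusted p = 0.0368). By contrast, fipr-4, fipr-6, fipr-7, fipr-10 and fipr-11 were lower in uz1, with differences from -1.91 to -1.60. fipr-7 read 0.36, 2.52 and -0.02 in ok165 and -1.55, 0.86 and -1.77 in uz1. Its pair 2 arrays were high in both strains, so that the strains' ranges overlapped, while the paired differences of -1.91, -1.66 and -1.75 were nearly equal (adjusted p = 0.0294, limma). fipr-6 gave the same picture, with 0.59, 2.45 and 0.09 against -1.25, 0.79 and -1.67 (difference -1.75 ± 0.09, adjusted p = 0.0289). Without the pairing none of these 5 passed (adjusted p from 0.674 to 0.799, limma). Of 22 members tested, 2 were higher, 5 lower and 15 not called (31.8% called, against 0.644% of all genes), and the median was -0.23. The 5 lower genes lie at 2 places of chromosome V, fipr-4, fipr-6 and fipr-7 at one and fipr-10 and fipr-11 at the other. Members of such families can be near-identical, and probes may then share signal.

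**Figure D2:**
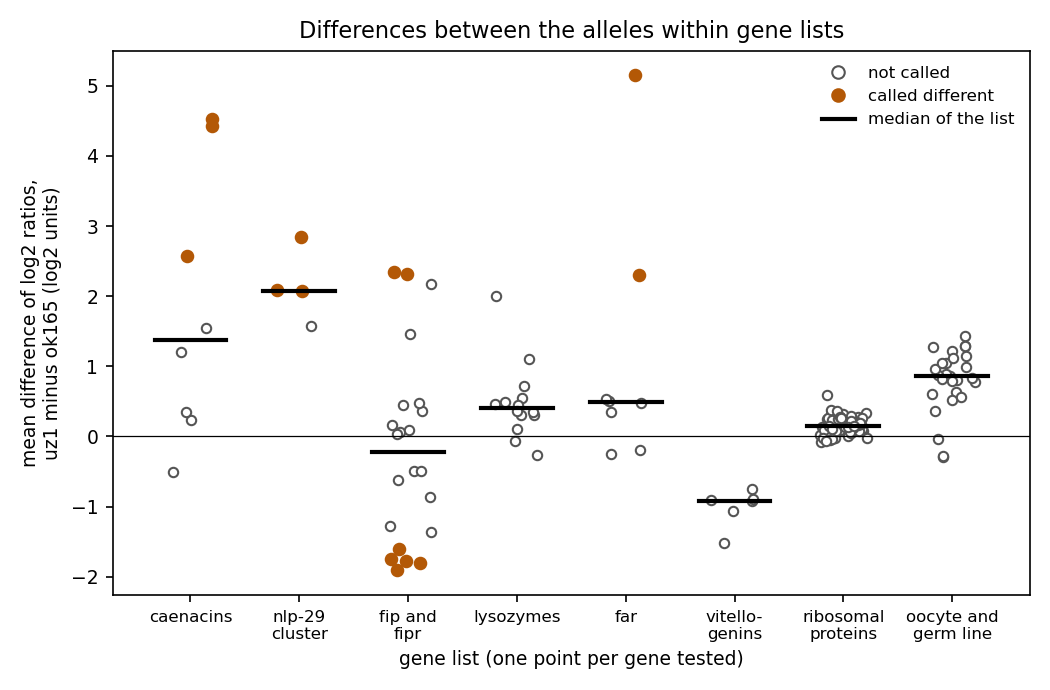
Mean paired difference of log2 ratios (uz1 minus ok165) for each tested gene of 8 lists. Filled points passed the test and bars give the list's median. Caenacins, the nlp-29 cluster and far genes hold called genes above 0 only, the fip and fipr list holds called genes on both sides, and no vitellogenin, lysozyme, ribosomal protein or germ-line gene was called.

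A block of neighbouring genes on chromosome V was below wild type in ok165 and above it in uz1. It holds F56A4.3 and irld-35 together with mct-2, C01B4.8, C01B4.7, srd-61, srd-73 and Y45G12C.3, so that 8 of the 12 genes tested in the stretch were called. The order is that of the annotation, and the probe positions in the files, whose build is not named, put some of these genes in another order. All 8 were higher in uz1, by 1.83 to 5.45. Their mean ratios averaged -2.12 in ok165 and 1.07 in uz1. C01B4.8 read -1.41, -0.95 and -1.68 against 1.67, 2.15 and 1.82 (difference 3.23 ± 0.23, adjusted p = 0.017, limma). Y45G12C.3 read -1.34, -2.45 and -1.76 against 1.21, 0.28 and 1.45 (2.83 ± 0.34, adjusted p = 0.0235). srd-61 encodes a putative seven-transmembrane chemoreceptor. On no ok165 array did its mutant channel stand well above background, and it read 0.87, 0.44 and 1.19 in uz1, at least 4.54-fold higher by that channel (difference of ratios 2.93, adjusted p = 0.0174). srd-73 belongs to the same receptor family and differed by 1.83 ± 0.20 (adjusted p = 0.0324). mct-2, which belongs to the monocarboxylate transporter family, differed by 2.28 ± 0.32 (adjusted p = 0.0281).

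Y19D10A.4 and Y19D10A.11, also on chromosome V, showed the same pattern. The annotation places them in a stretch of their own. By probe position, however, Y19D10A.11 lies between irld-35 and mct-2, and Y19D10A.4 just past C01B4.8. They are therefore not read as a second locus. Y19D10A.4 read -0.99, -1.60 and -1.38 in ok165 and 1.35, 0.91 and 1.48 in uz1 (difference 2.57 ± 0.27, adjusted p = 0.0235, limma). The description of its probe in the array design names C01B4.6, a gene of the block above, so the signals of these copies may be mixed. The genes from mct-2 to Y45G12C.3 and the Y19D10A genes were chosen for mention after their values and positions were seen, apart from C01B4.8, srd-61, srd-73 and Y45G12C.3.

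**Figure D3:**
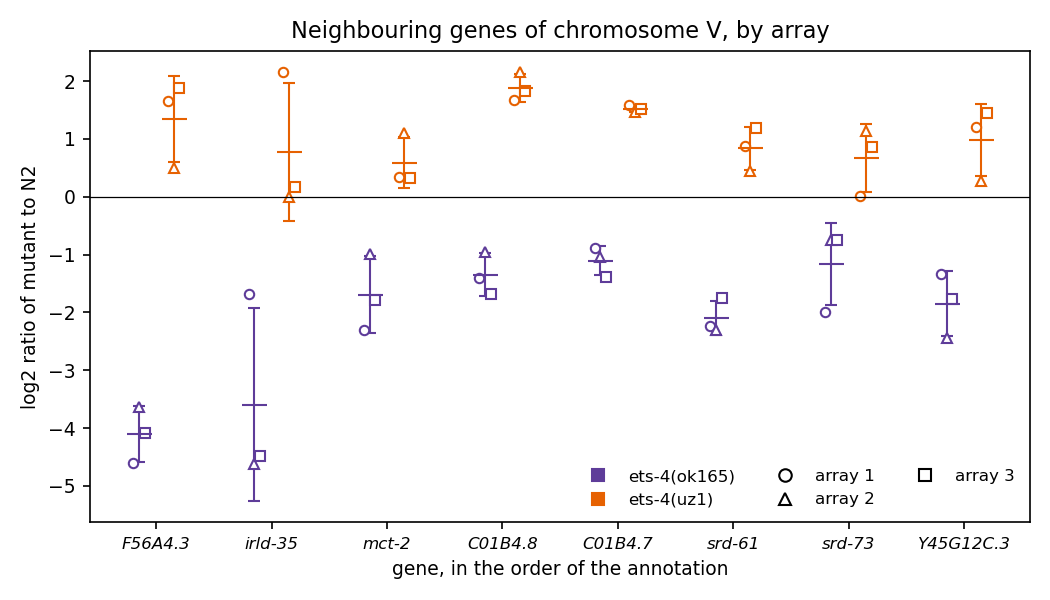
Log2 ratio of mutant to N2 on each array for the 8 called genes of the block on chromosome V, in annotation order. Symbols mark array number, bars the mean and SD of 3 arrays. All ok165 arrays (purple) are below 0 and below every uz1 array (orange) of the same gene.

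Among F-box genes, whose products join target proteins to ubiquitin ligases, 2 of 175 tested were called (1.14%, against 0.644% of all genes), both of the fbxa subfamily on chromosome V. So small a count is not read as a result about F-box genes. fbxa-193 read -3.18, -2.74 and -3.48 in ok165 and 0.32, 0.84 and -0.50 in uz1, and was thus strongly reduced in ok165 and close to wild type in uz1 (difference 3.36 ± 0.32, adjusted p = 0.0174, limma). fbxa-191 read -1.87, -1.31 and -2.34 against 0.23, 0.97 and -0.22 (2.17 ± 0.11, adjusted p = 0.0243). haf-6, a half-size ABC transporter of chromosome I, was mentioned after its values were seen. It was below wild type in both strains but less so in uz1, with -2.45, -2.32 and -2.18 against -0.97, -0.61 and -0.15 (1.74 ± 0.28, adjusted p = 0.0396).

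Several genes of unknown function were strongly raised over wild type in uz1 and less so, or not at all, in ok165. F48C1.9 read -0.17, -1.79 and 0.00 in ok165 and 3.29, 3.41 and 4.40 in uz1, a difference of 4.35 ± 0.88 (adjusted p = 0.0281, limma). On the ok165 arrays its mutant channel was well above background on 1 of 3 and its N2 channel on 0 of 3, so the ok165 ratios are imprecise. Its neighbour F48C1.8 read 1.88, 0.19 and -0.19 against 4.09, 3.67 and 3.69 (3.19 ± 0.87, adjusted p = 0.0445). For these genes the N2 channel also differed, by 1.54 for F48C1.9 and 1.14 for F48C1.8, the largest shifts of that channel among the 94. C45B2.3 read -1.31, -0.43 and -0.88 against 2.15, 2.84 and 2.84 (3.48 ± 0.22, adjusted p = 0.017). lmd-4, which encodes a LysM-domain protein, read 0.29, 0.45 and 0.00 against 2.95, 3.44 and 3.77 (3.14 ± 0.57, adjusted p = 0.0281). Y39H10A.1 read -0.55, -1.09 and 0.10 against 2.99, 3.14 and 2.46 (3.38 ± 0.94, adjusted p = 0.0453). The N2 channel of lmd-4 was well above background on no array. That of Y39H10A.1 was so on 0 of 3 ok165 and 1 of 3 uz1 arrays. The mutant channel of both genes was so on 2 of 3 ok165 arrays. Their rises over wild type are therefore imprecise. In each of these 5 genes the lowest uz1 array was above the highest ok165 array.

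Further calls in this direction fell singly into the lists. ptr-22, a patched-related membrane protein gene, was higher by 2.46 ± 0.34 (adjusted p = 0.0281, limma). It was the only one called of 25 patched-related genes tested (4%, against 0.644% of all genes). The chemoreceptor gene str-31 was higher by 2.20 ± 0.43 (adjusted p = 0.0379), so that 3 of 230 chemoreceptor genes tested were called (1.30%, against 0.644% of all genes), which is not read as a result about the family. The mutant channel of str-31 was well above background on 1 of 3 ok165 and 3 of 3 uz1 arrays, and its N2 channel on no array. The O-acyltransferase gene oac-15 read -2.36, -1.32 and -0.03 against 0.78, 0.67 and 2.50 (2.55 ± 0.57, adjusted p = 0.0379), and its N2 channel differed by 1.34 in pair 1 and by -0.38 and -0.02 in pairs 2 and 3. The mutant channel of oac-15 was well above background on 1 of 3 ok165 arrays and 3 of 3 uz1 arrays, and its N2 channel on 1 of 3 and 2 of 3. The nuclear hormone receptor gene nhr-259 was higher by 1.40 ± 0.16 (adjusted p = 0.0468). Its chromosome I neighbours nhr-73 and nhr-74 differed by 1.39 (adjusted p = 0.0526) and 0.95 (adjusted p = 0.0902) and did not pass, although nhr-74 gave nearly equal differences of 0.96, 0.96 and 0.92 in the 3 pairs.

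**Figure D4:**
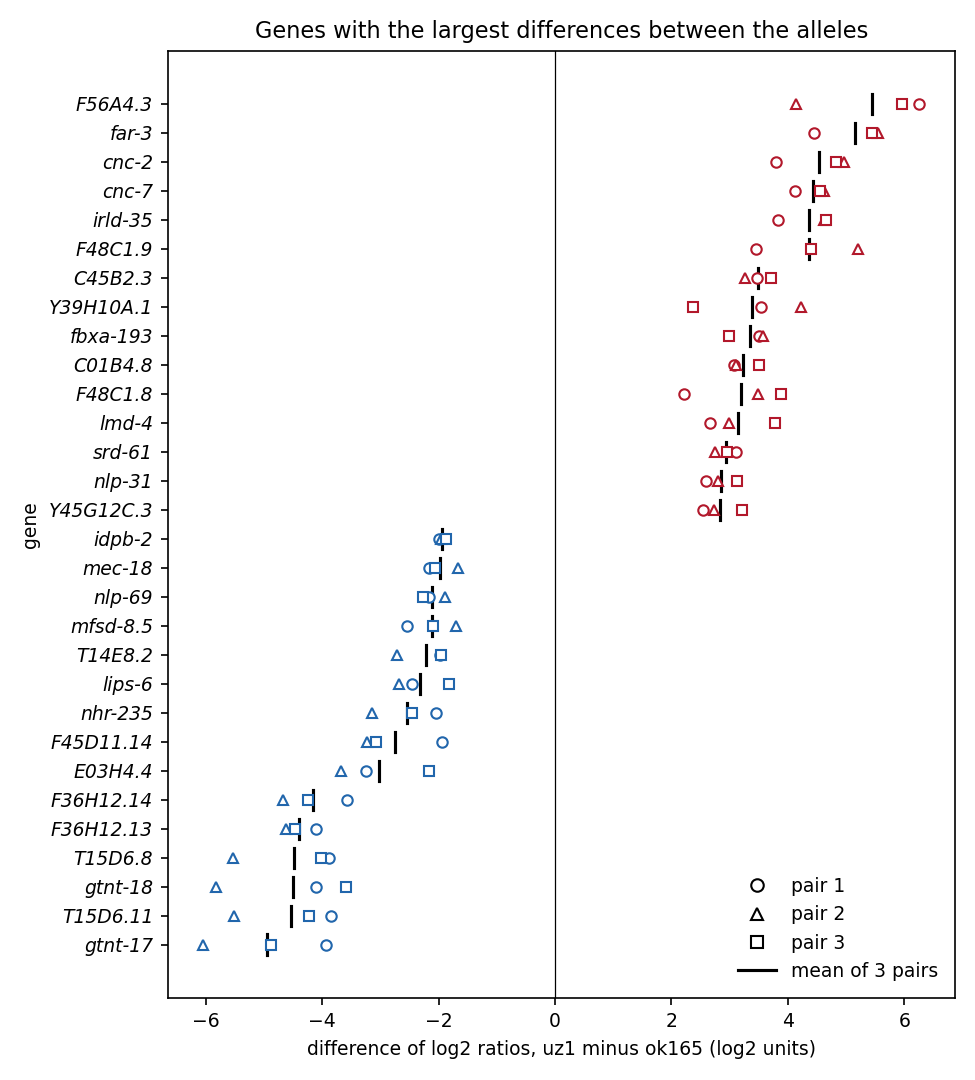
Paired differences of log2 ratios (uz1 minus ok165, horizontal axis) for the 15 genes with the largest called increase and the 15 with the largest called decrease. Symbols mark the 3 pairs and the black bar their mean. Every symbol of a gene lies on the same side of 0, and the widest spread between pairs is seen at gtnt-18 (SD 1.17) and F56A4.3 (SD 1.15).

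The largest reductions in ets-4(uz1) relative to ets-4(ok165) were at neighbouring gene pairs. gtnt-17 and gtnt-18, adjacent on chromosome V, were raised in ok165 and reduced in uz1. gtnt-17 read 1.24, 2.21 and 2.41 in ok165 and -2.70, -3.82 and -2.46 in uz1, a difference of -4.95 ± 1.05, or 30.9-fold (adjusted p = 0.0285, limma). gtnt-18 read 2.01, 2.79 and 2.07 against -2.10, -3.02 and -1.51 (-4.50 ± 1.17, adjusted p = 0.0379). T15D6.8 and T15D6.11 on chromosome I behaved alike. T15D6.11 read 0.57, 1.70 and 1.94 against -3.27, -3.81 and -2.28 (-4.53 ± 0.88, adjusted p = 0.0281), and T15D6.8 differed by -4.48 ± 0.91 (adjusted p = 0.0281). E03H4.4, in the same stretch, read 1.35, 1.24 and 1.47 against -1.90, -2.42 and -0.69 (-3.02 ± 0.78, adjusted p = 0.0433), and its mutant channel was well above background on 1 of 3 uz1 arrays. In all 5 genes every ok165 array was above wild type and every uz1 array below it.

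F36H12.13 and F36H12.14 on chromosome IV differed as much but from another starting point. F36H12.13 read -0.48, 0.47 and -0.24 in ok165 and -4.59, -4.15 and -4.71 in uz1 (-4.40 ± 0.26, adjusted p = 0.013, limma). It was thus near wild type in ok165 and far below it in uz1, where its mutant channel was well above background on 1 of 3 arrays. F36H12.14 was not well above background on any uz1 array and was at least 9.50-fold lower there by the mutant channel (difference of ratios -4.16, adjusted p = 0.0195). These names are adjacent and the values nearly equal, so the probes may share signal.

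Other genes lower in uz1 were raised in ok165. F45D11.14 read 2.62, 2.87 and 2.0 in ok165 and 0.68, -0.36 and -1.07 in uz1 (-2.75 ± 0.70, adjusted p = 0.044, limma). T14E8.2 read 1.98, 3.14 and 1.95 against 0.00, 0.43 and 0.00 (-2.21 ± 0.43, adjusted p = 0.0379), and its mutant channel was well above background on 1 of 3 uz1 arrays. Its N2 channel differed by -1.61 in pair 1 and by 0.10 and -0.14 in pairs 2 and 3. That channel was well above background on no array, so the ratios of T14E8.2 to wild type are imprecise. The nuclear hormone receptor gene nhr-235 read 2.22, 3.14 and 0.69 in ok165 and was not well above background in uz1, at least 4.68-fold lower by the mutant channel (difference of ratios -2.54, adjusted p = 0.0379). The N2 channel of nhr-235 was also well above background on no array, so its rise over wild type in ok165 is imprecise. Of 186 nuclear hormone receptor genes tested, nhr-235 and nhr-259 were called, in opposite directions (1.08%, against 0.644% of all genes). So small a count is not read as a result about the family.

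Other genes were close to wild type in ok165 and reduced in uz1. mec-18, which is expressed in the touch receptor neurons and encodes a protein of the acyl-CoA synthetase type, read 0.49, -0.32 and 0.20 in ok165 and -1.67, -1.99 and -1.87 in uz1 (-1.97 ± 0.26, adjusted p = 0.0319, limma). mec-17, which encodes an alpha-tubulin acetyltransferase of the same neurons and was mentioned after its values were seen, read 0.08, -0.20 and 0.26 against -1.53, -1.85 and -1.02 (-1.51 ± 0.20, adjusted p = 0.0445). No array of one strain reached the range of the other for either gene. The 11 general neuron markers had a median of -0.15 with none called, between -0.41 for ric-4 (SNAP-25) and 0.41 for snb-1 (synaptobrevin). nlp-69, of the neuropeptide-like family, read -0.27, -1.05 and 0.12 against -2.44, -2.95 and -2.14 (-2.11 ± 0.19, adjusted p = 0.0281).

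Single calls concerned enzymes and transporters. The lipase-like gene lips-6 read -0.18, -0.76 and 0.86 in ok165 and -2.63, -3.43 and -0.96 in uz1 (-2.32 ± 0.44, adjusted p = 0.0369, limma). mfsd-8.5, of the major facilitator family of transporters, read 1.21, -0.23 and 0.52 against -1.33, -1.93 and -1.58 (-2.11 ± 0.42, adjusted p = 0.0379). oac-4 read 0.56, 0.94 and 1.47 against -1.30, -1.43 and -0.09 (-1.93 ± 0.41, adjusted p = 0.0445), with N2 differences of -0.86, 1.25 and 0.73. Its mutant channel was well above background on 1 of 3 uz1 arrays. Thus 1 of 35 O-acyltransferase genes was lower and another, oac-15, higher (together 5.71%, against 0.644% of all genes). idpb-2 was below wild type in both strains, at -0.64, -0.64 and -0.58 against -2.63, -2.60 and -2.46, and its paired differences of -2.0, -1.96 and -1.88 varied least among the genes with the largest decreases (adjusted p = 0.0281). The C-type lectin gene clec-67 was also further below wild type in uz1 (difference -1.92 ± 0.38, adjusted p = 0.0423). It was the only one called of 133 C-type lectin genes (0.752%, against 0.644% of all genes), which is not read as a result about the family.

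Most of the other calls were single genes of modest difference, and a few are given here after their values were seen. The sphingomyelinase gene asm-3 read 1.04, 0.05 and 1.58 in ok165 and -0.60, -1.30 and 0.23 in uz1, so that the ranges overlapped while each pair moved the same way (-1.45 ± 0.17, adjusted p = 0.0445, limma). F23D12.7 showed the smallest called difference, with -0.18, -0.02 and -0.07 against 1.11, 1.38 and 1.27 (1.34 ± 0.05, adjusted p = 0.0445). nstp-8 read -3.11, -1.52 and -0.30 against -1.23, -0.15 and 1.51. It varied widely among arrays of a strain but differed by 1.88, 1.37 and 1.8 in the pairs (adjusted p = 0.0423). nstp-9, named alike but on the X chromosome, was near wild type in ok165 and read 1.86, 1.34 and 1.49 in uz1 (1.68 ± 0.31, adjusted p = 0.0446). C28G1.2 had no ok165 array well above background in the mutant channel and was at least 3.99-fold higher in uz1 by that channel (difference of ratios 2.36, adjusted p = 0.0485).

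By chromosome, the calls were uneven. Chromosome V carried 55 of the 94, which is 1.78% of its 3082 genes tested, while the percentages elsewhere lay between 0.0911% on chromosome III and 0.482% on the X chromosome. Of the 63 genes higher in uz1, 43 were on chromosome V, and of the 31 lower genes, 12. The X chromosome, on which ets-4 lies, carried 10 of its 2073 genes. Of the 88 called genes that could be placed in the annotation, 44 lay within 10 gene positions of another called gene and formed 15 stretches, 12 of them on chromosome V. In each of the 15 stretches the called genes moved in one direction. The count takes the Y19D10A genes as a stretch apart from the block of F56A4.3, although they are not read as a second locus above. Besides those above, such stretches were C17B7.9, C17B7.3, C17B7.12, C04E12.2 and T20D4.12 (higher in uz1 by 1.48 to 2.55), C36C5.12, C36C5.14 and C36C5.15 (higher by 1.5 to 2.83) and pud-3 with pud-4 (differences of -1.56 and -1.49). These genes are named for their positions, after their values were seen. The N2 channel differed by 0.74 for C36C5.15 and 0.61 for C17B7.3.

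**Figure D5:**
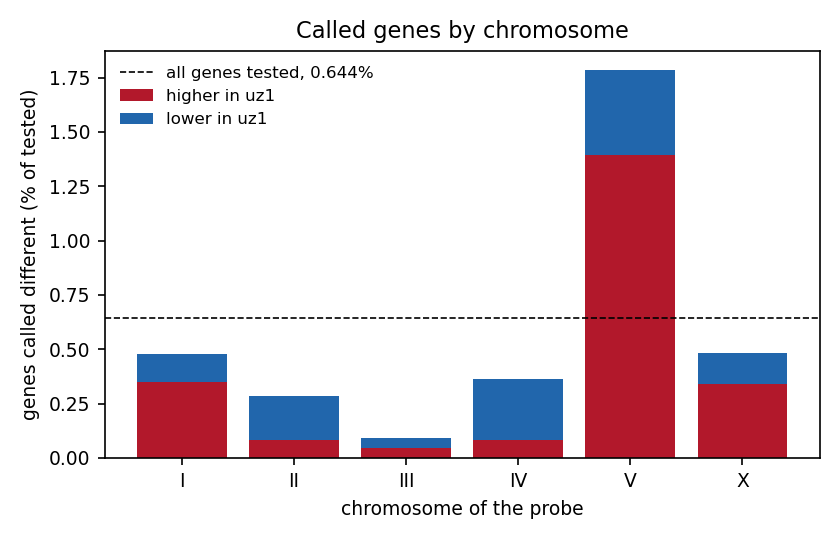
Genes called different as a percentage of those tested on each chromosome, split into higher in uz1 (red) and lower in uz1 (blue). The dashed line marks 0.644%, the share over all genes. Chromosome V reaches 1.78% and every other chromosome lies below the line.

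The vitellogenins, yolk proteins made in the intestine, were lower than wild type in both strains and further below in uz1, but none of the 6 passed the test. All 6 differences were negative, with a median of -0.92, and medians of -0.97, -0.94 and -1.11 in pairs 1, 2 and 3. Each of the 6 had an unadjusted p under 0.05 (limma). vit-5 read -2.19, -2.01 and -1.68 in ok165 and -3.12, -2.91 and -2.63 in uz1, and vit-4 read -2.31, -2.02 and -1.89 against -3.34, -3.14 and -2.92. The strains' ranges did not overlap for either gene, and the differences were -0.92 (adjusted p = 0.0927, limma) and -1.06 (adjusted p = 0.0741). vit-6, with -0.48, -1.36 and -0.74 against -1.52, -2.82 and -2.81, differed by -1.52 (adjusted p = 0.0913).

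Genes tied to the tissues in which ets-4(uz1) worms show defects, the vulva and the seam (lateral epidermal cells that form the cuticle ridges called alae), gave no call. The 22 vulval genes had a median difference of 0.03 and a range from -0.44 to 0.69. sqv-4, needed to make vulval chondroitin, read 0.10, 0.26 and 0.16 in ok165 and 0.99, 1.1 and 0.51 in uz1, a difference of 0.69 (adjusted p = 0.184, limma). The 17 seam and alae genes had a median of 0.26, with nhr-73 and nhr-74 given above, and eff-1, the cell fusion protein, at 0.59 (adjusted p = 0.211). The 11 heterochronic genes, which time larval fates, had a median of 0.02, with blmp-1 at 0.58 (adjusted p = 0.179) and lin-42 at -0.39 (adjusted p = 0.347). At an unadjusted p under 0.05 (limma), the shares were 13.6% for vulval, 35.3% for seam and alae and 9.09% for heterochronic genes. Over all genes tested the share was 17.7%. A p that misses the threshold does not show that these genes had equal levels.

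No marker of tissue or stage was called, but the medians of several marker lists lay to one side of 0, some of them in certain pairs only. RNA came from whole worms, so fewer cells of a type and less RNA per cell cannot be told apart. The paper reports slow larval growth for both strains, and how closely their stages matched was not tested. The 27 oocyte and germ-line genes were higher in uz1 for 24, with a median of 0.86, but the medians of the pairs were 1.84, 0.84 and -0.04. Per array, their median ratio to wild type was -1.02, 0.11 and -0.06 in ok165 and 0.92, 1.06 and -0.10 in uz1, so the strains differed in pairs 1 and 2 and not in pair 3. The 25 sperm proteins followed, with medians of 1.51, 0.38 and -0.05 in the pairs. The 10 intestinal markers had a median of -0.44 with 9 below 0, and pair medians of -0.62, -0.46 and -0.36. The 8 pharyngeal markers had medians of -1.1, -1.26 and 0.28, the 8 body wall muscle markers 0.47, 0.37 and 0.30, and the 8 hypodermal markers 0.34, -0.02 and 0.47. The 20 molting genes had a median of 0.48 with 18 above 0, and pair medians of 0.36, 0.18 and 1.01. The part of these shifts in the calls was not tested.

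Other lists held no call, though some lay mostly to one side of 0. No call was made among 145 cuticle collagen genes (median -0.14), 63 cytochrome P450 genes (-0.08), 44 glutathione S-transferase genes (-0.29), 62 UDP-glycosyltransferase genes (-0.42), 14 lysozyme genes (0.40), 11 genes of the insulin to DAF-16 pathway (-0.12) or 61 ribosomal protein genes (0.15). Of the UDP-glycosyltransferase genes 47 of 62 were below 0, of the cuticle collagens 98 of 145 and of the glutathione S-transferases 31 of 44, whereas 12 of 14 lysozyme genes and 54 of 61 ribosomal protein genes were above 0. Over all genes tested, 7885 were above 0 and 6700 below. At an unadjusted p under 0.05, the shares in these 7 lists, in the same order, were 24.1%, 36.5%, 29.5%, 32.3%, 21.4%, 9.09% and 1.64%, against 17.7% of all genes tested. The lists were not tested as groups.

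Where both strains departed strongly from wild type, they mostly did so in the same direction. Only 10 genes had a mean ratio past 4-fold in both strains. In 9 of these the sign was the same, 8 below and 1 above wild type, and gtnt-18 was the exception. The aspartyl protease gene asp-12 read -4.44, -4.07 and -4.08 in ok165 and -4.44, -4.09 and -3.96 in uz1, a difference of 0.04 with a 95% interval from -0.34 to 0.42. oac-12 read -2.54, -2.99 and -1.35 against -2.79, -2.91 and -1.25 (-0.02, interval -0.44 to 0.39). ech-9, an enoyl-CoA hydratase gene, read -3.10, -4.13 and -3.01 against -3.96, -3.94 and -3.88 (-0.51, interval -1.20 to 0.17). oac-10 gave -4.49, -4.38 and -1.23 against -2.64, -4.61 and -2.69, and its interval of -1.56 to 1.66 leaves the difference undetermined. The mutant channel of oac-12 was well above background on 1 of 3 ok165 and 2 of 3 uz1 arrays. That of ech-9 was so on 2 of 3 uz1 arrays, and that of oac-10 on 2 of 3 ok165 arrays. Near background, similar ratios do not show equal levels. Among the 10, vit-3 (-0.90, interval -1.39 to -0.40) and vit-4 (-1.06, -1.44 to -0.68) were further below wild type in uz1. The lysozyme gene lys-7 was raised in both, at 1.80, 3.23 and 2.37 against 3.15, 2.73 and 3.18 (0.55, interval -0.41 to 1.52).

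The wild-type channel was fitted for comparison, since N2 RNA should not depend on the mutant beside it. Fitted in the same way, the N2 signals of the paired arrays gave 0 calls (limma), with 379 genes at an unadjusted p under 0.05 against 2583 for the ratios. Partner N2 channels correlated at 0.991 to 0.994, and whether they shared RNA is not stated. The N2 fit need not hold the spread between cultures of the mutants, so its 0 calls set no background for the 94. The N2 difference had the sign of the call in 69 of the 94. Among the 94 genes the median size of the N2 difference was 0.11, against 0.06 over all genes, and it exceeded 0.5 for 9. Using the mutant channel alone, all 94 kept their direction and 54 passed. Without pairing, 24 genes passed, or 0.165%, of which 23 were among the 94. The calls rested on 3 pairs. Their share fell to 0% when pair 1 or pair 3 was left out and was 0.713% without pair 2, when 64 of the 94 passed.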

How the data were processed

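The authors hybridized Cy3-labelled N2 cDNA and Cy5-labelled mutant cDNA to Agilent C. elegans 22K arrays, 3 per strain, named as independent repeats. No source says that these came from separate cultures, so p-values measure only the spread between these arrays. The deposited scanner tables hold log10 ratios of Cy5 over Cy3 after the authors' lowess normalization in Agilent Feature Extraction (8.5.1.1 per the submitters' notes; per the file headers, 9.1.3.1 for replicates 2 and 3), with channel intensity values per spot, deposited beside them. The deposited series table of the same arrays holds log2 values of the authors' same ratios, as a comparison with the scanner tables showed. Ratios run mutant over wild type, and the scanner's log10 values were converted to log2 here. Array number limits the precision. The genome build behind the probe positions was not given in the sources used here.

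Control spots and outlier flags were left out, and spots of a probe averaged. A probe was kept where 3 or more arrays had a channel well above background. Genes were named by sequence name (18124 of 18877 matched to the RefSeq annotation WBcel235). The brightest kept probe stood for a gene. Paired differences of 14585 genes were fitted in limma 3.58.1 (R 4.3.3) with an intercept and Benjamini-Hochberg adjustment, and checked on simulated data. Intervals are 95% moderated intervals, ± is the SD of 3 pairs. Replicate numbers pair the samples because all 3 pairs' deviations correlated above 0.1 (0.51, 0.69 and 0.29) and slide or scan was shared. Bounds used Aquantile-normalized channels. Alternatives were an unpaired fit, normexp with loess, the series table, other filters, probe averaging, slide or scan blocks, leaving out each pair, Rank Products and the mutant channel alone. Named genes were the 15 largest increases and decreases, up to 4 further passing members per list, ets-4 and its neighbours, up to 3 members of tissue and phenotype lists, and genes past 4-fold in both strains. The comparison, its 51 gene lists and rules were chosen with earlier results of these data known. Promoter motifs were not analysed here.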

Additional observations from a re-analysis of the deposited data

Results flagged for a closer look

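The alleles differed at 94 genes by the test of the difference itself, and for the 28 among them that were above wild type on every array of one strain and below it on every array of the other the differences (uz1 minus ok165, log2) were as follows. Lower in uz1 were gtnt-17 (-4.95), T15D6.11 (-4.53), gtnt-18 (-4.50), T15D6.8 (-4.48), E03H4.4 (-3.02), oac-4 (-1.93) and C17E7.13 (-1.62). Higher in uz1 were F56A4.3 (5.45), far-3 (5.15), cnc-2 (4.53), cnc-7 (4.43), C45B2.3 (3.48), C01B4.8 (3.23), srd-61 (2.93), nlp-31 (2.84), Y45G12C.3 (2.83), C01B4.7 (2.63), Y19D10A.4 (2.57), oac-15 (2.55), mct-2 (2.28), C38D9.2 (2.06), C27C7.1 (1.9), spig-4 (1.86), srd-73 (1.83), Y19D10A.11 (1.72), nstp-9 (1.68), nhr-259 (1.40) and F23D12.7 (1.34). With 3 arrays per strain, single arrays were not tested for standing apart.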

How the results depend on the processing

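The called share (0.644% of genes tested; 63 genes higher and 31 lower in uz1) depended on the settings. None of the 94 called genes changed sign, which leaving out a pair could not do, since each had the same sign in all 3 pairs. Without the replicate block it was 0.165% (17 and 7), 23 of those 24 genes being among the 94, as with the slide as a random block. With the slide as a fixed block, only pair 1 compared the strains, so that fit is no check on the calls. With the scan as a fixed block the share was 0, but that fit equals leaving out pair 1. The share was 0 with no filter on dim probes (2860 genes at an unadjusted p under 0.05, limma). Dropping ratios of exactly 0 together with that filter, a setting chosen after seeing the data, gave 106 genes. Rank Products at a proportion of false positives under 0.1 gave 2.26% (167 and 163), with 92 of the 94 among them, and the mutant channel alone gave 0.405% (41 and 18, in all 59). Leaving out a pair gave 0% to 0.713%, or 0 to 69 genes higher and 0 to 35 lower. It gave 0 to 6 in the N2 channel and 16 to 60 in the mutant channel. Background correction by normexp with loess gave 76 genes, the stricter filter 115, and 94 came from the series values. With 3 pairs, small or variable differences could not be called.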
